A study of Mus musculus with 6 samples.

Results

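Mast cells and basophils are granulated blood cells that need the transcription factor Gata2, and 9 genes of this lineage were followed in hematopoietic cells at the stage when they emerge from the aorta. The rule that lists the genes goes by their lineage and uses no measured value, but it was set with earlier results of these data known. All 9 are among the 24062 genes of the count tables. RNA was sequenced from CD31+ckit+ cells of the aorta-gonad-mesonephros (AGM) region of E10.5 embryos, sorted by a Venus reporter into a medium fraction (Vmed, labelled G2Vi) and a high fraction (Vhigh, labelled G2Vh), with 3 libraries per fraction. No treatment is named in the labels, and all embryos carried 1 *Gata2* allele with an IRES-Venus cassette (*Gata2Venus*, C57BL/6JOlaHsd in the labels), so that all libraries come from reporter carriers and the fractions were separated by Venus signal. The number of embryos or cells behind a library is not given in the sources used here. Nothing in the labels says that the libraries of a fraction came from separate litters, although the study describes its RNA measurements as independent experiments. If they did not, the p-values here leave out the spread between litters and could measure technical spread only. The comparison asks whether the fraction with more Venus carries more or less RNA of this lineage.

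Both cell types store mediators in granules and release them when an antigen cross-links IgE on the high-affinity receptor Fc epsilon RI. Of the members, *Srgn* encodes serglycin, the proteoglycan core that holds granule proteases and amines. *Cpa3* (carboxypeptidase A), *Cma1* (mast cell chymase) and *Tpsb2* (a tryptase) encode granule proteases, and *Hdc* encodes histidine decarboxylase, which makes histamine. *Fcer1a* and *Ms4a2* encode the alpha and beta chains of Fc epsilon RI, *Il1rl1* encodes the receptor ST2, and *Mitf* encodes a bHLH-zip transcription factor of mast cells and pigment cells. Several of these genes are not private to the lineage. *Srgn* is used by most blood cells and by endothelium, *Cpa3* and *Hdc* are also found in immature blood progenitors, and *Mitf* marks melanocytes.

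The sequences upstream of the transcription starts show which members carry GATA motifs, the letters that Gata2 and Gata1 can bind. The motif was searched on both strands as AGATAA or the same with a last letter G (AGATAG), and likewise as TGATAA or with a last letter G (TGATAG), in the 250 bases before each start (RefSeq, GRCm38.p6). The promoter table holds 8 of the 9 members, *Tpsb2* being the other, with 12 starts in all. A match lay before 9 of the 12 starts, belonging to 7 members, while 26.5% of all 32851 promoters of this length hold at least 1. *Ms4a2* had 3 matches, and *Il1rl1* had 5 before its distal start and 1 before the other. *Mitf* had 2 before 1 start, 1 before another and none before its remaining start. Of all promoters, 6.4% held 2 or more. *Srgn* had none at either start. A match describes letters only and is not evidence of binding. The lines after this give 5 members in lower case with the GATA matches, on either strand, in capitals. *Cpa3* and *Srgn* are shown because they were higher in Vhigh in each numbered pair of libraries, *Ms4a2* and *Fcer1a* because they were counted in the same library alone, and the distal start of *Il1rl1* because it holds the most matches.
Cpa3 (chr3:20242182-20242431, minus strand): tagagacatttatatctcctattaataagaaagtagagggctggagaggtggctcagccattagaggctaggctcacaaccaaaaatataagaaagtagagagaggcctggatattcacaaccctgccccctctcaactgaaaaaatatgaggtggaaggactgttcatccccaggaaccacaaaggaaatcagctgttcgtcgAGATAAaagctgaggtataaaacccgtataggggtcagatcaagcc
Srgn (chr10:62527446-62527695, minus strand): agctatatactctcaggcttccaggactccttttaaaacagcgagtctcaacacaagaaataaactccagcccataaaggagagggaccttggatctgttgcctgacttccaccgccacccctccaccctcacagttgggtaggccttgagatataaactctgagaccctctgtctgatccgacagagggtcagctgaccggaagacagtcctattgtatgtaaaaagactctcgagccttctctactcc
Ms4a2 (chr19:11623720-11623969, minus strand): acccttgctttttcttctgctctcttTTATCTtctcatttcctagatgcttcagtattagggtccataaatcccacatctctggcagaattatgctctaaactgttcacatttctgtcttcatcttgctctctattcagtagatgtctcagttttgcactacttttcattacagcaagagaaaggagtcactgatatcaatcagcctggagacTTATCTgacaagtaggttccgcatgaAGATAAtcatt
Fcer1a (chr1:173227230-173227479, minus strand): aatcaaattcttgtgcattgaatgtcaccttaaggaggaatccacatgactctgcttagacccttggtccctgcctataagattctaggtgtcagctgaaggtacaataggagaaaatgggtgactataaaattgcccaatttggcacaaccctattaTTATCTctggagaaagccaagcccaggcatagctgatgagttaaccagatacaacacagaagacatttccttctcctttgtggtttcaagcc
Il1rl1 (chr1:40429320-40429569, plus strand): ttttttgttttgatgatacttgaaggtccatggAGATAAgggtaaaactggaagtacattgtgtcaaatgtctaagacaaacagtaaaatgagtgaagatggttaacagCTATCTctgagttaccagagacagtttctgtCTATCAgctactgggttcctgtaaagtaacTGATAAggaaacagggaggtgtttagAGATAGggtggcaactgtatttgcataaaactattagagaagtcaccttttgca
The match of *Cpa3* begins 46 bases before its start. Those of *Ms4a2* begin 224, 37 and 11 bases before the start, that of *Fcer1a* 92 bases before, and those of *Il1rl1* between 217 and 54 bases before.

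The libraries held between 8296831 and 12035206 reads on genes, so that 3 counts, taken as the smallest number to be shown, correspond to 0.25 to 0.36 CPM (counts scaled to the gene total of the library). The intervals treat every read as an independent count and cover no other error. The reads carry no molecular identifiers, so amplified copies of a molecule cannot be told apart and the intervals can be too narrow. Libraries differed in ways that touch genes of low expression. Reads that fell outside annotated genes made up 60.7% of the uniquely aligned reads in Vhigh replicate 2 and 49.2% in Vmed replicate 2, against 13.5% to 39.6% in the other 4 libraries. Between 10427 genes (Vhigh replicate 1) and 18460 genes (Vhigh replicate 2) had at least 1 count. Same-numbered libraries of the fractions resembled each other in these shares, and values are therefore given by replicate number as well. In bulk libraries, fewer cells of a type and less RNA per cell cannot be told apart.

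The granule matrix gene *Srgn* and the protease gene *Cpa3* were higher in Vhigh in 3 of 3 same-numbered pairs. *Hdc* was at a similar level in 5 libraries and nearly missing in the other. The chymase, the tryptase and the IgE receptor chains were counted in at most 1 library each. None of these differences passed the threshold: in edgeR's quasi-likelihood test, 0 of 12688 genes (0%) had an adjusted p under 0.05, and all 4 members that passed the filter on low counts (*Srgn*, *Cpa3*, *Hdc* and *Il1rl1*) had an adjusted p of 0.9998.

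*Srgn* (chr10:62493833-62527451 of GRCm38, minus strand, 7 exon blocks) had 165, 51.5 and 26.9 CPM in Vmed replicates 1, 2 and 3 and 361, 177 and 92.5 CPM in Vhigh replicates 1, 2 and 3. Each Vhigh library was above the Vmed library of the same number, by 2.19-fold, 3.44-fold and 3.44-fold, although the fractions overlapped because Vmed replicate 1 exceeded Vhigh replicate 3. The mean was 81.0 ± 73.5 CPM (SD, n = 3) in Vmed and 210.3 ± 137.5 CPM (SD, n = 3) in Vhigh. The log2 fold change was 1.36 (SE 0.78; edgeR quasi-likelihood adjusted p = 0.9998), and the exact two-sided permutation test gave p = 0.2, the smallest value reachable with these group sizes being 0.1. With the replicate number as a block the log2 fold change was 1.53 (SE 0.31; edgeR quasi-likelihood adjusted p = 0.69). Without Vhigh replicate 1 the log2 fold change was 0.58, and without Vmed replicate 1 it was 2.47, so that the libraries of the first replicate moved it most, in opposite directions. Of the genes tested, 15.2% were higher in Vhigh in 3 of 3 pairs and 15.4% were lower in 3 of 3, which is the background for the 2 members with this pattern.

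*Cpa3* (chr3:20215620-20242181, minus strand, 12 exon blocks) was counted 97, 30 and 0 times in Vmed replicates 1, 2 and 3 and 1459, 259 and 133 times in Vhigh. In CPM these are 11.1, 3.62 and 0 in Vmed and 136.9, 23.8 and 11.1 in Vhigh. The value in Vhigh replicate 1 was more than 5-fold that of any other library, and the fractions met at 11.1 CPM, where Vmed replicate 1 and Vhigh replicate 3 could not be distinguished. Within the pairs, Vhigh was 12.3-fold higher in replicate 1 and 6.6-fold higher in replicate 2. In replicate 3 it was 35.8-fold higher with the floor of 3 counts in place of the 0 in Vmed, which is not a lower limit. The mean was 4.90 ± 5.66 CPM (SD, n = 3) in Vmed and 57.3 ± 69.2 CPM (SD, n = 3) in Vhigh. The log2 fold change was 3.58 (SE 1.61; edgeR quasi-likelihood adjusted p = 0.9998) and the exact two-sided permutation test gave p = 0.2. With the replicate number as a block it was 4.28 (SE 1.31; edgeR quasi-likelihood adjusted p = 0.99). Without Vhigh replicate 1 the log2 fold change was 1.67, and without Vmed replicate 1 it was 5.10.

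Apart from Vmed replicate 1 and Vhigh replicate 3, which could not be distinguished for *Cpa3*, the 6 libraries stood in the same order for *Cpa3* as for *Srgn*, with Vhigh replicates 1 and 2 highest and Vmed replicates 2 and 3 lowest. As a description over 6 libraries that are 3 numbered pairs, log2 CPM of *Cpa3* and *Srgn* had a Pearson r of 0.97, and 0.252% of the genes tested were at least as close to *Srgn*, *Cpa3* counted. Against *Srgn*, *Hdc* had r = -0.60 and *Il1rl1* r = -0.66. *Hdc* had only 5 counts in Vhigh replicate 1, the library with the most *Srgn*. *Il1rl1* had 2 counts in each library of replicate 1. These r values lean on those libraries, and whether the members vary as 1 group was not tested. Per length of the exons, *Srgn* was the most abundant member with a mean of 36.9 RPKM in Vmed and 95.8 RPKM in Vhigh. On the same scale *Cpa3* had 3.23 RPKM in Vmed and 37.7 RPKM in Vhigh, and *Hdc* 5.71 and 2.95 RPKM.

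*Hdc* (chr2:126593667-126619299, minus strand, 12 exon blocks) had 47.9, 33.7 and 27.7 CPM in Vmed replicates 1, 2 and 3 and 0.47, 27.8 and 28.3 CPM in Vhigh. It lay between 27.7 and 47.9 CPM in 5 libraries and at 5 counts (95% exact Poisson interval 1.62 to 11.7 counts) in Vhigh replicate 1, the library with the highest *Srgn* and *Cpa3*. In that replicate Vmed was 102-fold higher, while the ratio of Vhigh to Vmed was 0.82 in replicate 2 and 1.02 in replicate 3. The log2 fold change was -1.05 (SE 1.31; edgeR quasi-likelihood adjusted p = 0.9998) with an exact two-sided permutation p of 0.3, and without Vhigh replicate 1 it was only -0.48.

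**Figure D1:**
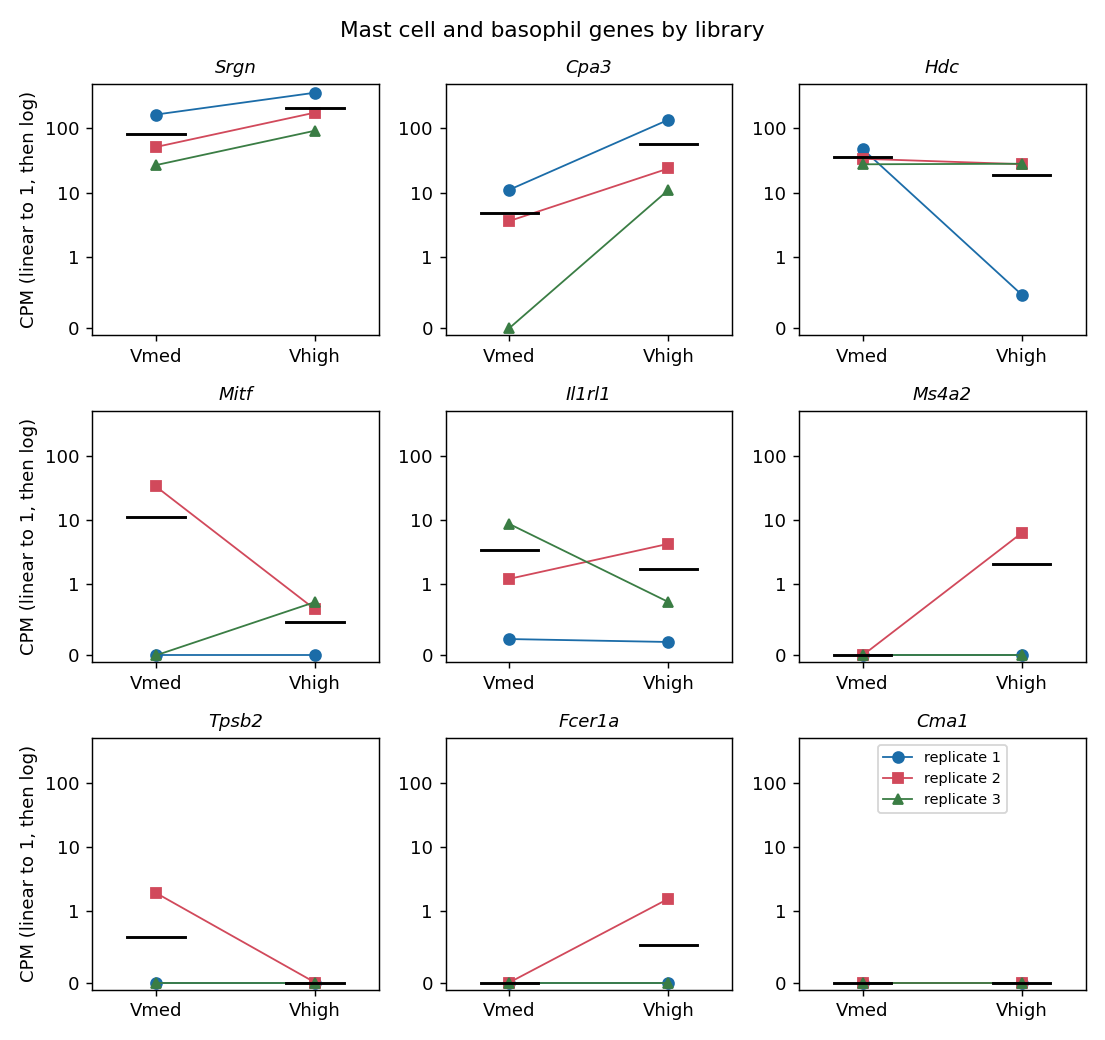
CPM of each of the 9 genes in the Vmed and Vhigh libraries (vertical axis linear up to 1 CPM and logarithmic above), with same-numbered libraries joined by a line and the mean of each fraction as a black bar. *Srgn* and *Cpa3* lie higher in Vhigh along every line, *Hdc* is at 0.47 CPM in Vhigh replicate 1 alone, and *Ms4a2*, *Fcer1a* and *Tpsb2* leave 0 in a replicate 2 library only.

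The remaining proteases were absent or sparse. *Cma1* (chr14:55941451-55944675) had 0 counts in all 6 libraries (95% exact Poisson upper limit 3.69 counts in each), below the floor of 0.25 to 0.36 CPM by library. *Tpsb2* (chr17:25366305-25369098) had 16 counts (95% exact Poisson interval 9.15 to 26.0) in Vmed replicate 2 and 0 in the other 5. Tryptase and chymase genes have close paralogs, and reads that aligned to several places were not counted on genes, so that these values can be too low.

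The IgE receptor chains were counted in Vhigh replicate 2 and nowhere else. *Ms4a2* (chr19:11615523-11623719) had 68 counts there (95% exact Poisson interval 52.8 to 86.2, 6.26 CPM). This was 17.3-fold above the same-numbered Vmed library with the floor of 3 counts in place of its 0, which is not a lower limit. *Fcer1a* (chr1:173221284-173227214) had 17 counts (interval 9.90 to 27.2, 1.57 CPM), 4.33-fold above that Vmed library on the same floor. Both were at 0 in the other 5 libraries, the other Vhigh libraries included, so that their presence followed a library and not the fraction. Of the 19075 genes with 3 or more counts in any library, 15.5% reached 3 counts in exactly 1 library, and 3 of the 9 members (*Ms4a2*, *Fcer1a* and *Tpsb2*) were among them. Of these 2960 genes, 62.7% were counted in Vhigh replicate 2 and 18.6% in Vmed replicate 2, the libraries with the largest shares of reads outside genes. The part of those reads in the values of *Ms4a2*, *Fcer1a* and *Tpsb2* was not tested. In GENCODE M21 no other annotated exon overlaps those of any member. The annotation behind the counts is not given, so whether reads of neighbouring genes were counted under these names was not tested.

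*Il1rl1* (chr1:40429570-40465415, plus strand) had 0.23, 1.21 and 8.65 CPM in Vmed replicates 1, 2 and 3 and 0.19, 4.24 and 0.75 CPM in Vhigh. It was lowest in both libraries of replicate 1, with 2 counts each, and its direction differed between replicates 2 and 3. Vhigh was 3.51-fold higher in replicate 2, and Vmed was 11.6-fold higher in replicate 3. The log2 fold change was -1.13 (SE 2.22; edgeR quasi-likelihood adjusted p = 0.9998) with an exact two-sided permutation p of 0.6, and it turned to 1.13 without Vmed replicate 3.

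*Mitf* (chr6:97807052-98021349, plus strand) had 275 counts (33.1 CPM) in Vmed replicate 2, 7 and 9 counts in Vhigh replicates 2 and 3, and 0 in the other 3 libraries. Vmed replicate 2 thus held 96.0% of its summed CPM, and *Mitf* did not pass the filter. Within replicate 2, Vmed was 51.4-fold higher. Of the 12026 genes with 100 counts or more in any library, 0.915% had their CPM concentrated in 1 library to that degree or more. Pigment cells also use *Mitf*. The sort kept CD31+ckit+ cells, but how far it left out cells of other types was not tested. A list of 10 mesenchyme and mural genes summed to 1841 to 4178 CPM in Vmed and 266 to 658 CPM in Vhigh. A list of 8 genes of pigment cells and their precursors had its highest summed level in the same library, at 331 CPM against 158 and 177 CPM in the other Vmed libraries and 27.8 to 139 CPM in Vhigh. Of this sum, *Ednrb*, which endothelium also uses, made up 315 CPM. In Vmed replicate 2 the other 7 genes had 86 counts (*Sox10*), 28 (*Tyrp1*), 15 (*Slc45a2*), 4 (*Mlana*), 1 (*Tyr*) and 0 (*Dct* and *Pmel*). *Mitf* had 0 counts in Vmed replicate 1. There these genes had 163 counts (*Sox10*), 15 (*Pmel*), 12 (*Tyrp1*), 2 (*Mlana*), 1 (*Slc45a2*) and 0 (*Dct* and *Tyr*). The part of such cells in the *Mitf* value was not tested.

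**Figure D2:**
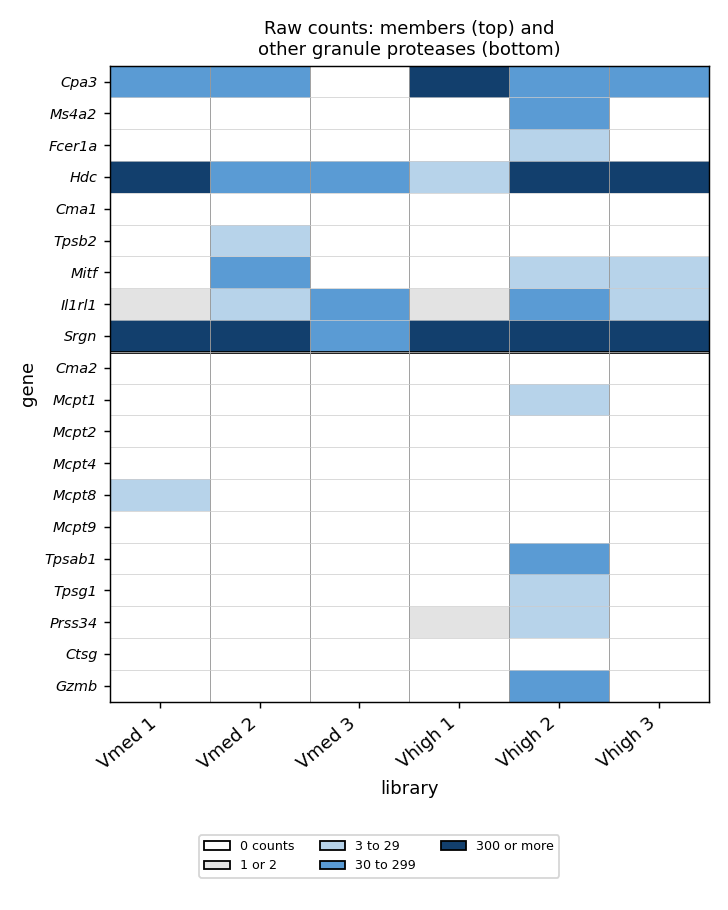
Raw counts, in 5 classes, of the 9 members (above the line) and 11 other granule protease genes (below) in the 6 libraries. *Srgn* and *Hdc* are filled in every library, whereas the protease rows are nearly empty outside Vhigh replicate 2.

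The wider lists around the members, 69 genes in all, were grouped as other granule proteases, amine, glycan and lipid mediator genes, receptors, Fc epsilon RI signaling and transcription factors. Of these genes, 48 passed the filter on low counts and 0 had an adjusted p under 0.05. Names given here beyond the rule of selection, chosen after their values were seen, are *Tpsg1*, *Prss34*, *Mcpt1*, *Mcpt4*, *Mcpt8*, *Cma2*, *Ctsg*, *Csf2rb*, *Mrgprb1*, *Ccr3*, *Gata1* and *Gata2*, as are the single marker genes of other cell types.

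Of the 11 other protease genes, 0 passed the filter and 5 had 0 counts in every library, among them the mast cell proteases *Mcpt4* and *Cma2* and cathepsin G (*Ctsg*). *Gzmb* (granzyme B) had 65 counts, the tryptase genes *Tpsab1* and *Tpsg1* 41 and 26, the basophil protease gene *Prss34* 15, and *Mcpt1* 8, in each case in Vhigh replicate 2. *Prss34* also had 1 count in Vhigh replicate 1. The basophil protease gene *Mcpt8* had 10 counts in Vmed replicate 1 alone. The summed level of the list was 14.3 CPM in Vhigh replicate 2 and at most 1.14 CPM in any other library. Thus the library that held the *Ms4a2* and *Fcer1a* counts also held most protease counts, and it is the library with the most genes and the largest share of reads outside genes. The part of depth and of such reads in this pattern was not tested.

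Among the 13 genes for amines, glycans and lipid mediators, 11 were tested, 4 with a log2 fold change above 0 and 7 below, with a median of -0.16 against -0.02 over all genes tested. *Alox5ap*, which presents arachidonic acid to 5-lipoxygenase, had 49.3, 61.6 and 68.2 CPM in Vmed and 224, 234 and 92.6 CPM in Vhigh replicates 1, 2 and 3. All Vhigh libraries were above all Vmed libraries, and the log2 fold change was 1.58 (SE 0.56; edgeR quasi-likelihood adjusted p = 0.9998). Of all genes tested, 4.15% did not overlap in this direction and 4.71% in the other. *Ptgs1* (cyclooxygenase) was higher in Vhigh in 3 of 3 pairs, at a log2 fold change of 0.98 (SE 0.58). *Slc18a2*, the transporter that loads amines into granules, had means of 134 ± 41.0 and 127 ± 73.0 CPM (SD, n = 3) and a log2 fold change of -0.16 (SE 0.58).

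Of 15 receptor genes in the tables, 9 were tested, 7 with a log2 fold change above 0, with a median of 0.63. *Kit*, the receptor for stem cell factor that mast cells depend on and 1 of the sorting markers, did not overlap and showed a log2 fold change of 1.91 (SE 0.57). The common beta chain gene *Csf2rb*, part of the receptors for several myeloid cytokines, had 25.5, 4.82 and 9.88 CPM in Vmed and 171, 41.8 and 12.4 CPM in Vhigh, higher in 3 of 3 pairs. Its close relative *Csf2rb2* had 0, 4 and 0 counts in Vmed and 54, 7 and 53 counts in Vhigh, which do not overlap, but did not pass the filter. *Cd63*, a granule membrane protein of many cells, showed a log2 fold change of -0.14. The receptor genes *Mrgprb1* and *Ccr3* had 62 counts each in Vmed replicate 2 and 0 in the other libraries.

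All 13 signaling genes were tested, 9 with a log2 fold change above 0, with a median of 0.41. *Fcer1g*, the gamma chain that Fc epsilon RI shares with other Fc receptors, was well counted in all libraries, with 480, 125 and 102 CPM in Vmed and 166, 139 and 77.4 CPM in Vhigh, and a log2 fold change of -0.93 (SE 0.68). The chain used by many myeloid cells was thus present throughout, whereas the alpha and beta chains were not. A macrophage list was also lower in Vhigh, with summed levels of 907 to 1475 CPM in Vmed and 91.0 to 293 CPM in Vhigh (9 of 9 genes with a log2 fold change below 0), and its part in the *Fcer1g* values was not tested. *Inpp5d*, the phosphatase SHIP that restrains this pathway, did not overlap, with 11.4 to 68.7 CPM in Vmed and 75.8 to 237 CPM in Vhigh and a log2 fold change of 1.77 (SE 0.74). *Plcg2*, a phospholipase of the same pathway, overlapped and showed a log2 fold change of 1.80 (SE 0.78). *Inpp5d*, *Plcg2*, *Kit* and *Alox5ap* were among the 0.867% of genes with an unadjusted p under 0.05 and a higher level in Vhigh, against 1.17% in the other direction, and for each the edgeR quasi-likelihood adjusted p was 0.9998.

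Of 16 transcription factor genes, 15 were tested, 11 with a log2 fold change above 0, with a median of 0.58. *Ikzf1* (Ikaros) stood furthest apart, with 17.4, 5.30 and 22.5 CPM in Vmed and 136, 287 and 205 CPM in Vhigh, a log2 fold change of 3.71 (SE 0.65) and an edgeR quasi-likelihood adjusted p of 0.93. *Runx1* and *Tal1* did not overlap either, at log2 fold changes of 2.12 and 1.19. *Tfec*, of the same family as *Mitf*, and *Meis2* did not overlap in the other direction, at -0.87 and -1.75. *Zeb2* showed a log2 fold change of 0.31. *Gata2* had 50.3, 29.4 and 68.3 CPM in Vmed and 39.2, 82.5 and 142 CPM in Vhigh replicates 1, 2 and 3, so that replicate 1, in which *Cpa3* and *Srgn* were highest in Vhigh, was the replicate in which *Gata2* was not higher. *Gata1* was higher in Vhigh in 3 of 3 pairs, at a log2 fold change of 0.52 (SE 0.92).

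Markers of stem and progenitor cells had fold changes in the same direction as *Cpa3* and *Srgn*. For the 10 genes of that list, all with a log2 fold change above 0, the summed level was 380 to 876 CPM in Vmed and 847 to 2057 CPM in Vhigh. The largest part of this sum was *Cd34*, with 304 to 739 CPM in Vmed and 435 to 1501 CPM in Vhigh. The fractions overlapped for *Cd34* and *Ptprc*. For 6 of the 10 genes (*Myb*, *Hlf*, *Cd27*, *Gfi1b*, *Spn* and *Ikzf2*) they did not overlap, against 4.15% of all genes tested in this direction. A list of 10 neutrophil genes had 335 to 522 CPM in Vmed and 773 to 1271 CPM in Vhigh, but most of this sum was *Mpo*, with 272 to 493 CPM in Vmed and 584 to 1130 CPM in Vhigh. *Mpo* and *Prtn3* did not overlap between the fractions and were higher in Vhigh. *S100a8* was lower in Vhigh in 3 of 3 pairs (log2 fold change -1.97), and *Ngp* and *Lcn2* also had lower means in Vhigh. *Elane*, *S100a9*, *Ltf* and *Camp* had higher means in Vhigh, and *Ctsg* was at 0. *Elane* had a log2 fold change of 3.21, with 420 counts in Vhigh replicate 1, although it was lower in 2 of 3 pairs. Endothelial genes, from a cell type that can lack ckit, summed to 1387 to 4724 CPM in Vmed and 1067 to 3140 CPM in Vhigh. The part of such cells in the *Srgn* and *Cpa3* values was not tested. Vhigh replicate 1, with the most *Srgn* and *Cpa3*, was lowest of the Vhigh libraries in the sums of the progenitor, neutrophil and endothelial lists. The same held for lists of megakaryocyte, eosinophil and lymphoid genes. It was highest of them for macrophage (293 CPM), mesenchyme (658 CPM), erythroid (233 CPM) and pigment cell genes (139 CPM).

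**Figure D3:**
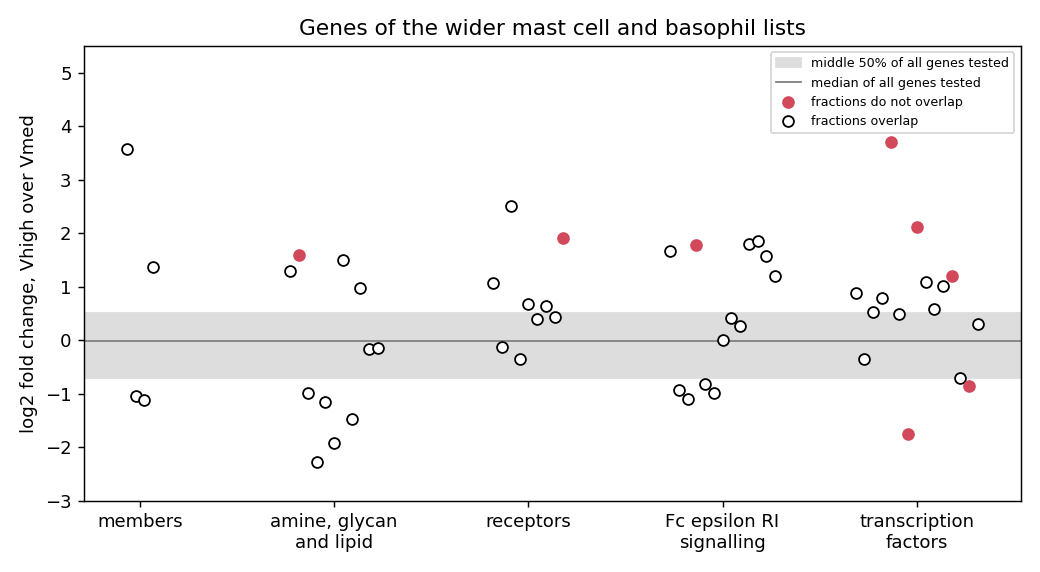
Log2 fold change of Vhigh over Vmed for the tested members and the tested genes of 4 wider lists, 1 point per gene, filled where the 3 libraries of a fraction all lie beyond those of the other. The grey band is the middle 50% of all genes tested, from -0.71 to 0.51, and most signaling genes and transcription factors lie above its centre.

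**Figure D4:**
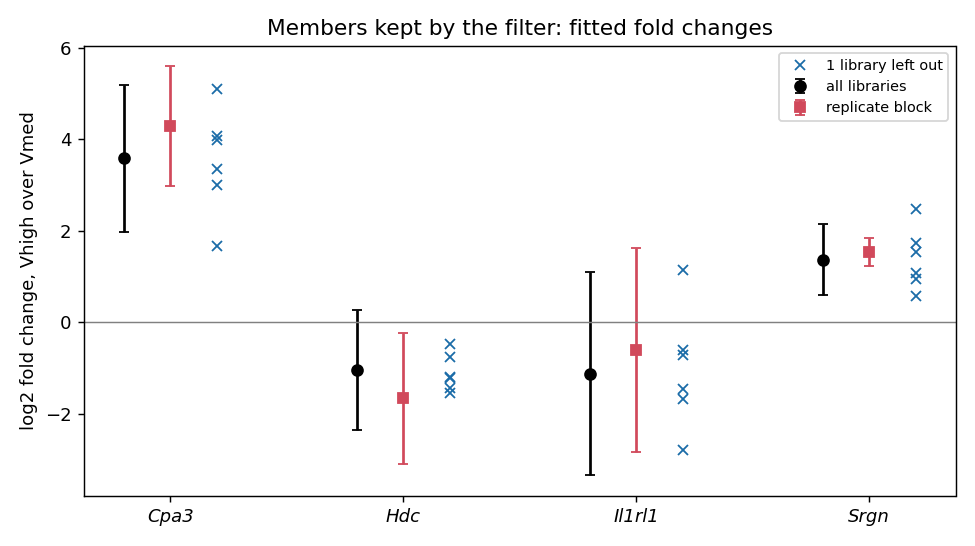
Log2 fold change of Vhigh over Vmed for the 4 tested members, with the standard error as bars, for all libraries, with the replicate number as a block, and with each library left out. *Cpa3* and *Srgn* stay above 0 and *Hdc* below 0 in all of these fits, while *Il1rl1* crosses 0.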

How the data were processed

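The authors sorted CD31+ckit+ cells of E10.5 AGMs into Vmed and Vhigh, amplified the RNA by the SMARTer protocol and sequenced single reads. Reads were aligned with TopHat and Bowtie 1.1.2 to GRCm38/mm10, and HTSeq is named in the submitters' processing notes. The authors deposited raw read counts per gene symbol, without normalization. The annotation and strand setting are not given in the sources used here. Lines of unassigned alignments entered no library size or test. Alignments to several places were 41.3% to 57.7% of each table's total.

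Libraries were grouped by their titles. Levels are CPM of the gene total. Vhigh and Vmed were tested against each other in edgeR 4.0.16 under R 4.3.3 (filterByExpr, TMM, quasi-likelihood test, Benjamini-Hochberg adjustment over 12688 genes at 0.05). The study used edgeR too and, unlike the main fit here, reported genes that differed between the fractions at a false discovery rate of 0.05. The cause of this difference was not tested. Single genes were compared by exact permutation of log2(CPM + 0.5) over 20 arrangements. Adjusted p-values come from edgeR throughout. RPKM used exon-union lengths of GENCODE M21, and promoters came from RefSeq. The fit was run on simulated data with less spread between libraries than the real ones, whose common biological coefficient of variation was 1.157. The simulation therefore does not show how many true differences the fit would find here. After subtraction of the fraction means, the correlation over genes was 0.21, 0.21 and 0.39 within the numbers and -0.29 to -0.01 between them. The subtraction by itself pushes the values between the numbers below 0 on average when those within are above 0. Only the values within the numbers therefore bear on pairing. On these, the numbers given in the titles were taken as pairs and used as a block in alternative fits. The main fit and the permutation test did not use the pairing. No 2 libraries had counts within sampling noise.

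Alternatives were 3 other scalings (RLE, upper quartile, gene totals), 2 other filters, the likelihood ratio test, DESeq2 1.42.0, limma-voom 3.58.1, the block, removal of Rn45s, another pseudocount and each library left out. Genes of the wider lists were named by rule: those kept with an unadjusted p under 0.05, those whose fractions did not overlap, and the 2 with the highest mean CPM of each list. Members and lists were chosen with earlier results of these data known.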

Additional observations from a re-analysis of the deposited data

How the results depend on the processing

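The number of genes past the threshold was 0 with all libraries (259 genes by unadjusted p). It was 37 without a filter on low counts, 21 with edgeR's likelihood ratio test, 51 with DESeq2, 74 with the replicate block in the likelihood ratio test, and 0 with limma-voom. In edgeR's quasi-likelihood test with a replicate block it was 0 (528 genes by unadjusted p under 0.05), and with each library left out it ranged from 0 to 1, the 1 without Vhigh replicate 1. None of the members was among the calls in any of these fits. The lowest adjusted p of a member was 0.18, for *Srgn* with the replicate block in the likelihood ratio test, and that of *Cpa3* was 0.28. Their log2 fold changes with the block in that test were 1.53 and 4.30. *Il1rl1* reversed, to 1.13, without Vmed replicate 3, and otherwise ranged from -2.80 to -0.61 with a library left out. The cause was not tested. *Srgn*, *Cpa3* and *Hdc* kept their direction in every fit, between 0.58 and 2.47, 1.67 and 5.10, and -2.11 and -0.48. *Ms4a2*, *Fcer1a* and *Tpsb2* were counted in 1 library each, and in the unfiltered fit their edgeR adjusted p-values were 0.99997.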

Other observations

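Eosinophils share the granule habit and many regulators of mast cells and basophils. Of 8 eosinophil genes in the tables, *Prg2*, which encodes major basic protein, had 269 and 408 counts in Vmed replicates 1 and 2 and 0 in Vmed replicate 3 and in all Vhigh libraries. *Prg3*, a related gene, had 139, 21 and 0 counts in Vmed and 0, 0 and 3 in Vhigh. Both genes were absent from 1 of 3 Vmed libraries, so that the fractions overlapped, and neither passed the filter on low counts. The eosinophil peroxidase gene *Epx* had at most 3 counts in any library, and the receptor gene *Il5ra* had 194, 11 and 0 counts in Vmed and 0, 20 and 54 in Vhigh. The genes were named after their values were seen. The summed level of the list was 69.6, 60.6 and 0 CPM in Vmed replicates 1, 2 and 3 and at most 4.74 CPM in Vhigh, opposite in direction to *Cpa3* and *Srgn*.

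Among 10 lymphoid genes, *Il7r* had 205 and 99 counts in Vhigh replicates 2 and 3 and 0 in the other 4 libraries. *Rag2* and *Gzma* had 0 counts in all 6.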
